A study of Homo sapiens with 6 samples.

Results

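RNA was sequenced from BLaER1-CTCF-mAID cells, a subclone of a human B cell leukaemia line that turns into macrophage-like cells when the transcription factor CEBPA is switched on. In every library the cells carried CTCF fused to an auxin-inducible degron, so that the plant hormone auxin (indole-3-acetic acid, IAA) marks the CTCF protein for destruction. There were 3 conditions with 2 libraries each. Cells at 0 h were left in medium without the factors that induce conversion, cells at 96 h control received those factors (estradiol, IL-3 and CSF-1) without auxin, and cells at 96 h CTCF-depleted received the factors together with auxin from the start. No library of a line without the degron is among these, so the effect of auxin itself and that of CTCF loss cannot be told apart here. Total counts ranged from 9273470 to 12718780 per library, and 14758 of the 30017 listed genes had enough counts to be tested. Below, the 10 genes of cohesin, its loader and its regulators RAD21, SMC1A, SMC3, STAG1, STAG2, NIPBL, MAU2, PDS5A, PDS5B and ESCO1 are described across the 3 conditions.

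Cohesin is a ring-shaped protein complex that holds sister chromatids together and extrudes loops of chromatin. SMC1A, SMC3 and RAD21 form the ring, and either STAG1 or STAG2 joins it as a further subunit. NIPBL and MAU2 make up the loader that also drives extrusion. PDS5A and PDS5B bind the ring and, with WAPL, help to release it from chromatin, and ESCO1 acetylates SMC3, which protects the ring from release. CTCF bound to DNA stalls extruding cohesin and so places the ends of loops. Blood cancers often carry mutations in cohesin genes.

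The gene for the depleted protein was checked first. CTCF stood at 230.5 and 214 CPM (counts scaled to a common library size, with factors from TMM) in the libraries at 0 h, at 181 and 174 CPM at 96 h control, and at 191 and 189 CPM at 96 h CTCF-depleted. CTCF mRNA therefore did not fall with auxin, with a log2 change of 0.10 against 96 h control (adjusted p = 0.119). Since the degron acts on the protein, this level does not check the depletion. The paper checked it separately, by mapping where CTCF was bound in induced macrophages with and without auxin.

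Markers matched the labelled cell states. The summed level of 10 B cell genes was 3089 and 3092 CPM at 0 h, 429.7 and 438 CPM at 96 h control, and 442 and 454 CPM at 96 h CTCF-depleted. EBF1 was the most abundant of them in every library. The summed level of 10 macrophage genes was 89.95 and 80.9 CPM at 0 h, 5714 and 5456 CPM at 96 h control, and 5262 and 5224 CPM at 96 h CTCF-depleted. LYZ carried most of the sums at 96 h (4658, 4396, 4168 and 4147 CPM in the same order), so they say little of the other genes. In 96 h CTCF-depleted against 96 h control ITGAM (1.15) and the B cell gene CD22 (1.47) rose past both thresholds defined below, and MRC1 (-1.33) and the B cell genes RAG1 (-1.94) and VPREB1 (-0.89) fell past both. At 0 h the most abundant macrophage gene was SPI1, and FCGR1A and CD163 were at 0 counts in both libraries. In bulk RNA, fewer cells of a type and less RNA per cell cannot be told apart.

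Markers of other lineages were low, with some exceptions. The T cell genes CD3D and CD3G, the epithelial gene EPCAM and the fibroblast gene DCN were at 0 counts in all 6 libraries, and CD3E had a count in 1 library. CD2 alone made up nearly all of the T cell list, at 0 CPM at 0 h, 3.53 and 3.52 CPM at 96 h control and 5.00 and 5.07 CPM at 96 h CTCF-depleted. The NK cell list of 4 genes summed to 39.6 and 36.3 CPM at 0 h, 127 and 124 CPM at 96 h control and 122 and 111 CPM at 96 h CTCF-depleted, mostly from NCAM1. Its gene NKG7 went from 2.48 and 2.85 CPM at 0 h to 34.9 and 34.5 CPM at 96 h control. In CTCF-depleted cells NKG7 was at 27.2 and 29.3 CPM. The NK cell genes GNLY and KLRD1 had at most 3 counts in each library. PPBP led the megakaryocyte list of 3 genes at 96 h, with 15.1 and 19.5 CPM at 96 h control and 18.6 and 17.9 CPM at 96 h CTCF-depleted. COL1A1 led the fibroblast list of 3 genes, which summed to 10.4 and 11.5 CPM at 0 h and to between 2.78 and 4.06 CPM at 96 h. The epithelial list of 3 genes summed to at most 0.463 CPM in any library, and in the library with the highest sum KRT18 was the most abundant.

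STAG1 is the gene on which the results below turn, and its promoter is shown because the depleted protein binds DNA. STAG1 (ENSG00000118007.13) lies on the minus strand of chromosome 3 (GRCh38), from 136336236 to 136752403. RefSeq (GRCh38.p14) lists its promoter, 300 bases around the gene's start, at chr3:136752329-136752628 on the minus strand. Capitals mark matches to CCANNAGNNGGC, a run of letters resembling the core of the known CTCF binding motif, which was searched on both strands and chosen after the sequences had been seen.

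STAG1 promoter: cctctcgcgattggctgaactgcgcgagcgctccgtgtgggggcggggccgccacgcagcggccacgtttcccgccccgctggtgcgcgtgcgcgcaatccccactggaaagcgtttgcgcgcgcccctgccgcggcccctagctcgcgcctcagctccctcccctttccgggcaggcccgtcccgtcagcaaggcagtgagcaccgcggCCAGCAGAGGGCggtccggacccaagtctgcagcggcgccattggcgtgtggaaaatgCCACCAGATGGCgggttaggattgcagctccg

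Its matches, CCAGCAGAGGGC at bases 211 to 222 and CCACCAGATGGC at bases 269 to 280 do not overlap and lie in the strand shown. Of the 35116 RefSeq promoter entries, 2.41% hold at least 1 match and 16 entries (0.0456%) hold at least 2. Among the 10 cohesin genes, 8 had entries (11 in all), and only that of STAG1 held a match. Since the pattern was chosen after the sequences had been seen, these shares are no test of whether the STAG1 promoter is unusual. In the comparison of 96 h CTCF-depleted with 96 h control, 10.2% of the 381 tested genes with at least 1 match rose and 20.5% fell, against 12.9% and 18.8% of the 9582 genes without one, and this difference was not tested. Of the 7 tested genes with at least 2 matches, STAG1 rose, CENPF and PTPN7 fell, and the other 4 did not pass the test. A match describes the letters only and is no evidence that CTCF was bound there in these cells.

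The first comparison, 96 h control against 0 h, asks what happens to the cohesin genes when B cells convert to induced macrophages with CTCF present. The ring subunits SMC1A and SMC3 and the subunit STAG1 fell, whereas the loader genes NIPBL and MAU2, the other STAG subunit STAG2 and the acetyltransferase ESCO1 rose. "Rose" and "fell" stand for an adjusted p below 0.01 in edgeR's quasi-likelihood test over all genes tested, and "past both thresholds" for a log2 fold change that also exceeds 0.6 in size. By the first rule 4 of the 10 genes rose, where 34.5% of all genes did, and 3 of 10 fell, where 33.7% of all genes did. By both thresholds NIPBL rose and SMC3 fell, where 25.4% of all genes rose and 22.9% fell. Whether these shares differ from those of all genes was not tested.

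**Figure D1:**
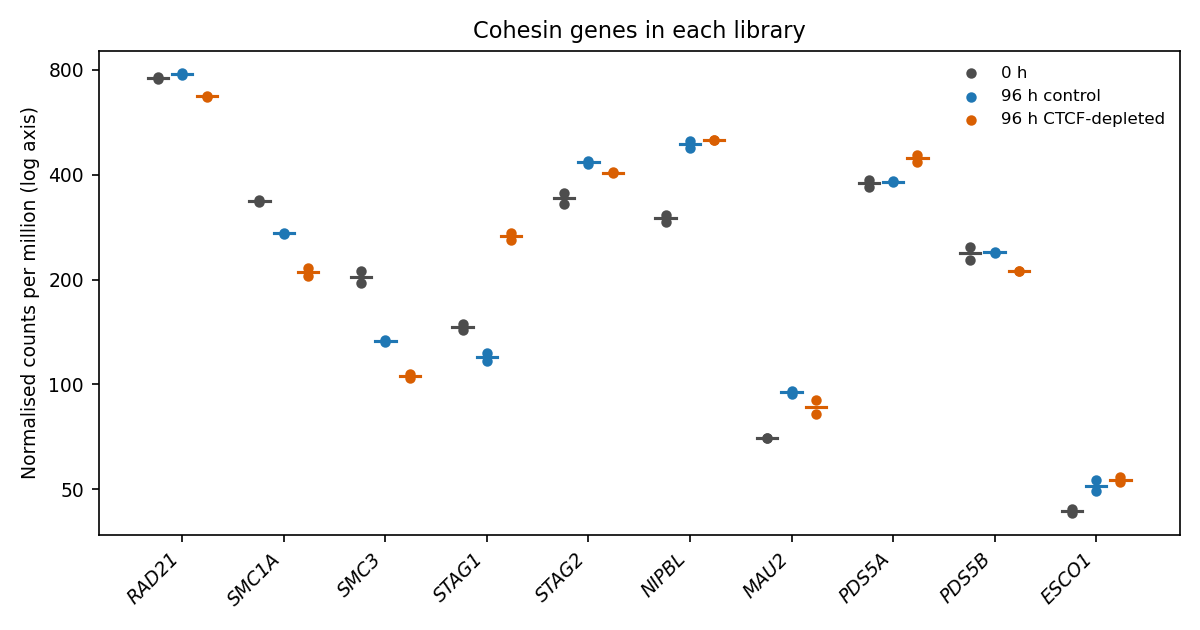
CPM of the 10 cohesin genes on a log axis; each dot is a library and each short line the mean of 2 libraries. STAG1 is highest in the 2 CTCF-depleted libraries (260.2 and 272 CPM) and lowest in the 2 control libraries at 96 h (117 and 123 CPM).

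SMC3 showed the deepest fall among the ring genes. Its level was 195 and 211 CPM at 0 h and 133 and 134 CPM at 96 h control, so that both control libraries lay below both libraries at 0 h. The log2 fold change was -0.61 (SE 0.055, adjusted p = 4.33e-15). Without the second library at 0 h it was -0.59, short of 0.6. SMC1A, the partner of SMC3, went from 333 and 339 CPM to 273 and 271 CPM, a log2 fold change of -0.31 (SE 0.0465, adjusted p = 4.49e-08). RAD21, the subunit that closes the ring, stood at 753.5 and 760.5 CPM at 0 h and at 774 and 784 CPM at 96 h control. Its log2 fold change was 0.04 (95% confidence interval -0.046 to 0.13, adjusted p = 0.40).

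The genes of the loader went the other way. NIPBL, the large loader subunit, had 292 and 307 CPM at 0 h and 478 and 499 CPM at 96 h control. This was the largest rise among the 10 genes in this comparison, with a log2 fold change of 0.70 (SE 0.046, adjusted p = 1.79e-20). MAU2, its partner, was at 70.35 CPM in both libraries at 0 h and at 93.9 and 96.0 CPM at 96 h control. Its log2 fold change was 0.43 (SE 0.069, adjusted p = 1.67e-07).

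The STAG paralogs moved in opposite directions. STAG1 had 143 and 149 CPM at 0 h and 117 and 123 CPM at 96 h control, a log2 fold change of -0.28 (SE 0.054, adjusted p = 6.98e-06). STAG2 had 329.6 and 354 CPM at 0 h and 430.3 and 438 CPM at 96 h control, a log2 fold change of 0.34 (SE 0.046, adjusted p = 1.81e-09). The levels of the 2 conditions did not overlap for either gene. PDS5A and PDS5B were close to 0 h, with log2 fold changes of 0.02 (95% confidence interval -0.074 to 0.11) and 0.01 (-0.088 to 0.10) and adjusted p of 0.77 and 0.89. ESCO1 rose from 43.8 and 42.8 CPM to 53.1 and 49.5 CPM with a log2 fold change of 0.25 (adjusted p = 0.00526), a call that was lost under 8 of 15 alternatives, among them DESeq2 (0.23, adjusted p = 0.0785; range over the alternatives 0.0025 to 0.147). Its log2 fold change was 0.16 without the first library at 96 h control (adjusted p = 0.14), 0.13 with total counts (adjusted p = 0.147) and 0.13 with upper-quartile scaling (adjusted p = 0.14).

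Scaling matters for the small changes in this comparison. The median log2 fold change of all genes was 0.02 with the scaling used here (TMM) and -0.10 when libraries were scaled by their total counts alone. SMC1A, SMC3, STAG1, STAG2, NIPBL and MAU2 kept their direction and their call under each scaling tried. NIPBL stood at 0.58 with total counts and 0.59 with upper-quartile scaling, short of 0.6, and at 0.69 with RLE. RAD21, PDS5A and PDS5B turned negative with total counts and did not pass the test there either.

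**Figure D2:**
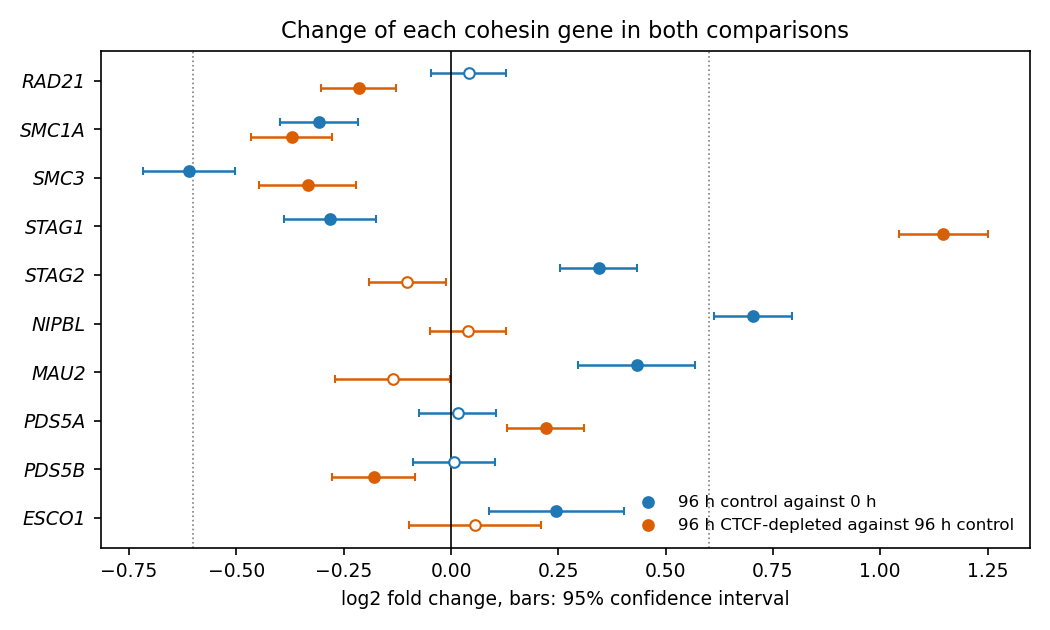
Log2 fold change of each gene, with its 95% confidence interval, in 96 h control against 0 h (blue) and in 96 h CTCF-depleted against 96 h control (orange); filled dots have an adjusted p below 0.01 and dotted lines mark 0.6 in either direction. STAG1 stands alone on the right in orange, at 1.15, and at -0.28 in blue.

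The second comparison, 96 h CTCF-depleted against 96 h control, asks what loss of CTCF does to the cohesin genes in cells under conversion for equally long. STAG1 more than doubled, with 2.21 times its control level. PDS5A rose slightly, and all 3 ring genes and PDS5B fell by less than the 0.6 threshold. STAG2, NIPBL, MAU2 and ESCO1 did not pass the test. Of the 10 genes, 2 rose (12.0% of all genes did) and 4 fell (17.4% of all genes did). By both thresholds STAG1 alone rose, where 5.41% of all genes did. No member fell past both thresholds with edgeR or DESeq2, where 7.03% of all genes did with edgeR, and at any p the lowest log2 fold change was -0.37.

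STAG1 had 117 and 123 CPM in the control libraries and 260.2 and 272 CPM in the CTCF-depleted libraries. The lower depleted library thus held over double the higher control library, and the gap was far wider than the difference between replicates. The log2 fold change was 1.15 (SE 0.052, 95% confidence interval 1.04 to 1.25, adjusted p = 9.52e-26). By p-value STAG1 ranked 16 of the 14758 genes tested, and 6.78% of these genes changed more in size.

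STAG2, the paralog that occupies the same place in the complex, had 430.3 and 438 CPM in the control libraries and 406 and 403 CPM in the CTCF-depleted libraries. Its log2 fold change was -0.10 (95% confidence interval -0.19 to -0.012, adjusted p = 0.073). Without the second control library it was -0.058. The depleted libraries were the lower ones, but the difference did not pass the test.

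The ring genes were lower without CTCF. RAD21 had 774 and 784 CPM in the controls and 674.5 and 667.5 CPM in the depleted libraries, a log2 fold change of -0.22 (SE 0.045, adjusted p = 7.5e-05). SMC1A had 273 and 271 CPM in the controls and 216 and 204 CPM in the depleted libraries, with a log2 fold change of -0.37 (SE 0.048, adjusted p = 4.13e-09). SMC3 had 133 and 134 CPM in the controls and 104 and 107 CPM in the depleted libraries, with a log2 fold change of -0.33 (SE 0.058, adjusted p = 3.5e-06). For each ring gene the depleted libraries lay below both controls. The fall of RAD21 did not pass the test without the second control library (-0.18, adjusted p = 0.0155) or without the second CTCF-depleted library (-0.18, adjusted p = 0.0103); over all its alternatives the adjusted p ranged from 1e-05 to 0.0155.

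The PDS5 paralogs parted in this comparison. PDS5A had 380.4 and 384 CPM in the controls and 435 and 456 CPM in the depleted libraries, a log2 fold change of 0.22 (SE 0.046, adjusted p = 7.57e-05). PDS5B had 241 and 239 CPM in the controls and 212 and 212 CPM in the depleted libraries, a log2 fold change of -0.18 (SE 0.049, adjusted p = 0.00245). Neither gene's conditions overlapped. The fall of PDS5B was lost under 8 of 15 alternatives, among them DESeq2 (adjusted p = 0.0372; range over the alternatives 0.00206 to 0.103) and leaving out any of the 4 libraries at 96 h (log2 fold change -0.15 to -0.14).

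The loader and ESCO1 stayed close to the control. NIPBL had 478 and 499 CPM in the controls and 502 and 502 CPM in the depleted libraries, a log2 fold change of 0.04 (95% confidence interval -0.049 to 0.13, adjusted p = 0.53). MAU2 had 93.9 and 96.0 CPM in the controls and 82.4 and 90.5 CPM in the depleted libraries, a log2 fold change of -0.14 (95% confidence interval -0.27 to -0.0017, adjusted p = 0.11). This interval, a normal approximation, just excludes 0, whereas the quasi-likelihood test gave an unadjusted p of 0.0523. Without the first CTCF-depleted library the log2 fold change of MAU2 was -0.031. ESCO1 had 53.1 and 49.5 CPM in the controls and 54.3 and 52.4 CPM in the depleted libraries, which overlap. Its log2 fold change was 0.06 (95% confidence interval -0.098 to 0.21, adjusted p = 0.62), and 0.14 without the first control library. NIPBL was at 0.10 without the second control library.

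Set beside 0 h, the CTCF-depleted cells complete the picture, although this comparison shares its libraries with the others and adds no independent evidence. All 10 genes passed the test: 6 rose, where 35.9% of all genes did, and 4 fell, where 35.0% of all genes did. Past both thresholds STAG1 (0.87, SE 0.051) and NIPBL (0.74, SE 0.046) rose, where 27.2% of all genes did. SMC3 (-0.94, SE 0.056) and SMC1A (-0.68, SE 0.0475) fell past both thresholds, where 25.2% of all genes did. The fall of RAD21 (-0.17) did not pass without the second CTCF-depleted library (-0.14, adjusted p = 0.0253). That of PDS5B (-0.17) was lost with DESeq2 and when any 1 of 4 libraries was left out, with adjusted p up to 0.0497 without the second library at 0 h, and the rise of ESCO1 (0.30) was lost with DESeq2 (adjusted p = 0.0189), under 2 scalings and without that same library (0.27). STAG1 alone fell from 0 h in control cells and rose from 0 h in depleted cells. SMC1A and SMC3 fell with CTCF and lay lower still without it. The rise of NIPBL was 0.70 with CTCF and 0.74 without.

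Ratios of paralogs and partners within a library do not depend on how libraries are scaled. The count of STAG1 per count of STAG2 was 0.4335 and 0.42 at 0 h, 0.272 and 0.281 at 96 h control, and 0.64 and 0.674 at 96 h CTCF-depleted. The 3 conditions were fully separate, with the control lowest and the depleted cells highest. On the log2 scale the ratio fell by 0.63 from 0 h to 96 h control, and it was 1.25 higher in CTCF-depleted cells than in the control, a factor of 2.38. An exact two-sided permutation test of 2 against 2 libraries gave p = 0.333, the smallest that this design allows, so none of the ratios can pass a threshold by it.

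For the PDS5 paralogs, PDS5A per PDS5B was 1.62 and 1.56 at 0 h, 1.58 and 1.61 at 96 h control, and 2.05 and 2.15 at 96 h CTCF-depleted. The first 2 conditions overlapped, and the depleted libraries were higher by 0.40 on the log2 scale (a factor of 1.32). NIPBL per MAU2 was 4.155 and 4.37 at 0 h, 5.09 and 5.20 at 96 h control, and 6.09 and 5.55 at 96 h CTCF-depleted, again in separate ranges. SMC1A per SMC3 was 1.705 and 1.61 at 0 h, 2.055 and 2.02 at 96 h control, and 2.07 and 1.90 at 96 h CTCF-depleted, so that the 2 partners fell unequally during conversion and their ratio overlapped between the conditions at 96 h. ESCO1 per ESCO2, the acetyltransferase that acts in S phase, turned over from 0.608 and 0.593 at 0 h to 1.80 and 1.77 at 96 h control, and reached 2.73 and 2.51 in CTCF-depleted cells.

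**Figure D3:**
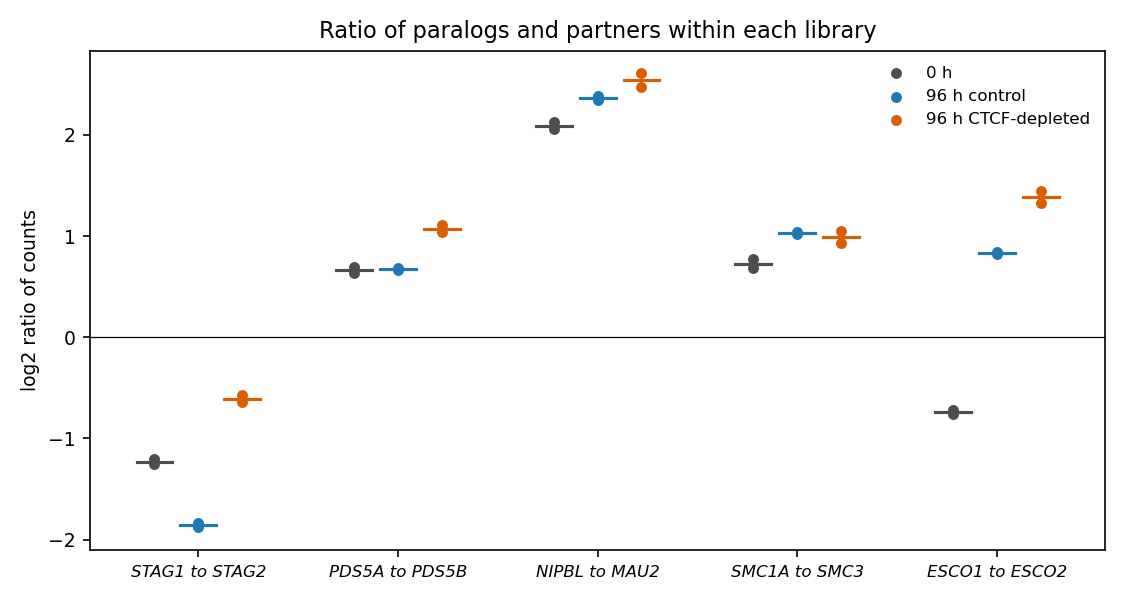
Log2 ratio of counts of paired genes within each library; each dot is a library and each short line the mean of 2 libraries. The STAG1 to STAG2 ratio is lowest at 96 h control (mean -1.855) and highest at 96 h CTCF-depleted (mean -0.61), while PDS5A to PDS5B separates only the CTCF-depleted libraries (mean 1.07) from the others (means 0.67).

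Levels of different genes were compared as CPM per kb of their annotated exons (the union of all exons of a gene). RAD21 was highest in every condition, at 52.6 ± 0.346 at 0 h, 54.2 ± 0.495 at 96 h control and 46.7 ± 0.346 at 96 h CTCF-depleted (mean ± SD, n = 2). At 0 h it was followed by SMC1A (31.0 ± 0.40) and PDS5A (31.0 ± 1.1), which do not differ beyond their spread, then NIPBL (23.95 ± 0.84), STAG2 (21.4 ± 1.1), STAG1 (18.6 ± 0.53) and PDS5B (18.1 ± 1.1). STAG1 and PDS5B do not differ beyond their spread there. SMC3 (13.1 ± 0.71), ESCO1 (8.20 ± 0.14) and MAU2 (6.40) were lowest. At 96 h control NIPBL (39.0 ± 1.2) had moved to the second place and SMC3 (8.60 ± 0.0495) to the last, where it does not differ beyond spread from MAU2 (8.64 ± 0.14). These places depend on the length used: with the longest annotated transcript of each gene NIPBL ranked 4 and SMC3 ranked 7 of 10 at 96 h control, while RAD21 was highest with both lengths. In CTCF-depleted cells STAG1 (33.9 ± 1.0) stood above STAG2 (25.3 ± 0.14).

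By this measure STAG1 made up 46.5% ± 0.55 of the summed STAG1 and STAG2 level at 0 h, 36.0% ± 0.54 at 96 h control and 57.2% ± 0.88 at 96 h CTCF-depleted (mean ± SD, n = 2). The sum of both was 40.0 ± 1.6 CPM per kb at 0 h, 42.5 ± 0.90 at 96 h control and 59.2 ± 0.89 at 96 h CTCF-depleted. Which paralog is ahead depends on the length used. With the longest annotated transcript of each gene, the STAG1 share was 32.6% ± 0.49, 23.9% ± 0.42 and 42.7% ± 0.88 in the same order, below that of STAG2 in all 3 conditions. The length cannot change the order of the conditions by this share, since each gene keeps the same length in all of them.

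PCCB, a subunit of propionyl-CoA carboxylase on the opposite strand, shares 1661 exonic bases with STAG1. The libraries were made with a stranded kit, but whether the counting used the strand is not given in the sources used here. PCCB had 62.1 and 67.7 CPM at 96 h control and 51.9 and 47.3 CPM at 96 h CTCF-depleted, a log2 fold change of -0.39 (adjusted p = 6.15e-05), opposite in direction to STAG1. In 96 h control against 0 h it fell as STAG1 did (-0.34, adjusted p = 6.32e-05). Other tested genes within 500 kb, chosen after the rise of STAG1 had been seen, did not rise with it. MSL2 (-0.32, adjusted p = 9.88e-06) and NCK1 (-0.31, adjusted p = 0.0022) fell. PPP2R3A (0.25, adjusted p = 0.33) and IL20RB (-0.985, adjusted p = 0.021) did not pass the test. RAD21 shares 576 exonic bases with UTP23 on the opposite strand, whose log2 fold change was 0.13 (adjusted p = 0.17), and the remaining overlaps of the 10 genes involve partners with at most 11 counts in any library or partners without a value here.

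Of 10 other genes of the cohesin cycle, 9 fell in 96 h control against 0 h, with a median log2 fold change of -1.15 against 0.02 for all genes, and 8 fell in 96 h CTCF-depleted against 96 h control, with a median of -0.49 against -0.03. Of all genes, 33.7% fell in the first comparison and 17.4% in the second. In the first comparison 7 fell past both thresholds, where 22.9% of all genes did: DSCC1 (-2.15) and CHTF18 (-1.18), which load the replication clamp during cohesion establishment, ESCO2 (-1.33), the helicase DDX11 (-0.80), sororin CDCA5 (-1.25), the cohesin protector SGO1 (-1.21) and securin PTTG1 (-1.13). WAPL, the release factor, fell with a log2 fold change of -0.59. In the second comparison PTTG1 (-0.77) and separase ESPL1 (-0.71) fell past both thresholds, where 7.03% of all genes did. HDAC8, which deacetylates SMC3, did not pass the test in either comparison (0.03 with adjusted p = 0.78, and -0.32 with adjusted p = 0.0112). The count of 8 was 6 with each other scaling and 5 with DESeq2.

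Condensin and proliferation genes fell in both comparisons. All 8 genes of condensin, the complex that compacts mitotic chromosomes, fell in 96 h control against 0 h (median -0.67), and SMC2 (-0.80), NCAPG (-0.85), NCAPH (-1.03) and NCAPH2 (-0.87) did so past both thresholds. In 96 h CTCF-depleted against 96 h control 7 of 8 fell (median -0.61), with NCAPG (-0.81), NCAPH (-0.79), NCAPG2 (-0.68) and NCAPD3 (-0.62) past both thresholds. All 16 proliferation genes fell in each comparison, with medians of -1.065 and -0.65, 14 of them past both thresholds in the first and 9 in the second. For both lists the shares of all genes that fell were 33.7% in the first comparison (22.9% past both thresholds) and 17.4% in the second (7.03% past both thresholds). UHRF1 fell most of these in both, by 2.38 and 1.00 on the log2 scale. With DESeq2, 15 of the 16 fell in the second comparison, TYMS being the exception (adjusted p = 0.0131). The proliferation genes thus moved with the falls of SMC1A and SMC3, and their part in those falls was not tested.

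Germline cohesin genes were scarce. RAD21L1 and SMC1B were too low to be tested. REC8, the meiotic counterpart of RAD21, had 18 and 37 counts at 0 h, 89 and 94 counts at 96 h control, and 75 and 76 counts at 96 h CTCF-depleted. It rose in the first comparison (log2 fold change 1.79, adjusted p = 1.25e-09) and did not pass the test in the second (-0.25, adjusted p = 0.338). STAG3, the germline paralog of STAG1 and STAG2, had 20 and 28 counts at 0 h, 75 and 72 counts at 96 h control, and 24 and 23 counts at 96 h CTCF-depleted. It rose past both thresholds in the first comparison (1.67, adjusted p = 1.42e-07) and fell past both in the second (-1.61, adjusted p = 1.45e-06), the reverse of STAG1. STAG3 has near-identical partial copies in the genome, among which reads can be split, so its level is uncertain. Of these copies, STAG3L3 had 82 and 138 counts at 0 h, 317 and 321 counts at 96 h control, and 305 and 321 counts at 96 h CTCF-depleted. STAG3L3 (1.60, adjusted p = 1.13e-17) and STAG3L4 (0.66, adjusted p = 6.94e-05) rose in the first comparison, while STAG3L1 (0.63, adjusted p = 0.0239) and STAG3L2 (0.20, adjusted p = 0.0847) did not pass the test, and none of the 4 copies passed in the second. Whether reads of the copies were counted for STAG3 was not tested.

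In the SMC5/6 complex, a relative of cohesin that acts in DNA repair, 4 of 9 genes fell in 96 h control against 0 h (median -0.27), EID3 (-1.08) and SLF1 (-0.91) past both thresholds; with upper-quartile scaling or total counts the count was 7. Of all genes 33.7% fell in this comparison (22.9% past both thresholds). In the next, 17.4% fell (7.03% past both thresholds) and 12.0% rose (5.41% past both thresholds). In 96 h CTCF-depleted against 96 h control 3 fell and 1 rose (median -0.07; with DESeq2 2 fell and 0 rose), and the pair past both thresholds consisted of paralogs. NSMCE4A, a subunit of the complex, had 32.5 and 36.8 CPM in the controls and 10.3 and 8.94 CPM in the depleted libraries, a log2 fold change of -1.85 (adjusted p = 1.48e-20). EID3, its paralog, had 3.795 and 4.26 CPM in the controls and 8.52 and 7.55 CPM in the depleted libraries, a log2 fold change of 1.00 (adjusted p = 0.000245, and 0.0151 with DESeq2).

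Of 6 tested architectural factors, CTCF (-0.32), MAZ (-0.54), LDB1 (-0.23) and PATZ1 (-0.50) fell in 96 h control against 0 h, where 33.7% of all genes did. None did so past both thresholds, where 22.9% of all genes did. With upper-quartile scaling or total counts 5 of the 6 fell. MAZ fell past both thresholds in 96 h CTCF-depleted against 0 h (-0.67, adjusted p = 3e-19), where 25.2% of all genes did. In 96 h CTCF-depleted against 96 h control YY1 fell (-0.24, adjusted p = 0.00093, and 0.0207 with DESeq2), where 17.4% of all genes did, and the other 5 did not pass the test. CTCFL, the testis paralog of CTCF, was at 0 counts in every library.

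For members past both thresholds in any comparison, the tested genes with the most similar course were found by the root mean square difference in log2 CPM over the 6 libraries, after centring each gene. The nearest to STAG1 were TANC2 (0.067), WWC3 (0.0735) and TEF (0.075). They had log2 fold changes of -0.34, -0.21 and -0.19 in 96 h control against 0 h, of which only that of TANC2 passed the test, and of 1.31, 1.00 and 1.11 in 96 h CTCF-depleted against 96 h control, which all passed. The nearest to NIPBL were NCOA2 (0.014), ZDHHC2 (0.021) and TMEM131 (0.021). The nearest to SMC3 were NUCKS1 (0.028), TOPBP1 (0.036) and DLEU2 (0.037), and to SMC1A RAPGEF1 (0.028), RPL22L1 (0.035) and ATP5B (0.040). With 3 conditions many genes share a course, and the distances to STAG1 were larger than those to the other 3 genes.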

How the data were processed

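Total RNA depleted of ribosomal RNA was sequenced from 6 libraries, 2 per condition. Per the labels and the study's methods, alignment (hg38, STAR 2.6.1d) and counting over protein-coding exons (featureCounts 2.0.6) were done by the authors, and the deposited counts are used here, although the deposited table also holds counts of noncoding genes; annotation release and strand setting are not given in the sources used here. The methods call the replicates biological and the labels do not say whether they were separate cultures, so p-values measure only the spread between these libraries.

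All 14758 genes kept by filterByExpr were fitted in R 4.3.3 with edgeR 4.0.16 (TMM, quasi-likelihood test, Benjamini-Hochberg over all genes tested, all 6 libraries, condition as the only term). The fit was also run on simulated counts, where by both thresholds it called 199 of 200 changed genes and 0 others. Those counts were drawn from the kind of model that the fit assumes, with larger changes than most described here. The run therefore does not check the calls of small changes. In the real libraries the biological coefficient of variation was 3.96%. CPM values use TMM-scaled library sizes. Confidence intervals are normal approximations from the log2 fold change and its SE, and are slightly narrower than the quasi-likelihood test implies. With 9273470 to 12718780 counts per library, the 10 genes had between 425 (ESCO1) and 10140 (RAD21) counts per library. Counting reads without molecular identifiers adds error that intervals over counts do not cover.

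The members and lists were chosen with earlier results of these data known. Named are all 10 members and, from the lists, genes past both thresholds (an adjusted p below 0.01 and a log2 fold change over 0.6 in size) or of known role; 5 of the 105 genes were matched by an older symbol. Gene positions and exon lengths came from GENCODE for GRCh38. Alternatives were DESeq2 1.42.0, RLE, upper-quartile or total-count scaling, no filter, at least 10 counts in every library, only the 4 libraries compared, a replicate block, each library left out, an adjusted p below 0.05, a prior count of 2 for ratios, the longest transcript for lengths and condition means for likeness.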

Additional observations from a re-analysis of the deposited data

Results flagged for a closer look

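STAG1 differed in its change from 0 h between cells with and without CTCF. It fell at 96 h control (log2 fold change -0.28, lower in 2 of 2 libraries) and rose at 96 h CTCF-depleted (0.87, higher in 2 of 2 libraries). The difference between these changes is the comparison of the conditions at 96 h, a log2 fold change of 1.15 with adjusted p = 9.52e-26 in edgeR's quasi-likelihood test. None of the other 9 genes passed the test in opposite directions against 0 h.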

How the results depend on the processing

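The log2 fold changes of the 10 genes in the 3 comparisons were recomputed under 15 alternatives each. Of these values, 406 kept their direction and their side of the adjusted p threshold, 28 lost the call and 16 changed sign; crossing 0.6 was not counted here. STAG1 kept its rise against 96 h control throughout (1.14 to 1.22).

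All changes of sign concerned genes without a call in 96 h control against 0 h. RAD21 was at -0.076 with upper-quartile scaling and -0.078 with total counts. PDS5A was at -0.10 with both and -0.022 without a filter, and ranged from -0.026 to 0.014 with a library left out. PDS5B was at -0.0048 with DESeq2, -0.00094 with RLE, -0.11 with upper-quartile scaling and total counts and -0.03005 without a filter, and ranged from -0.0597 to 0.033 with a library left out. The cause was not tested.

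The count of members that rose past both thresholds in that comparison was 0 with upper-quartile scaling and 0 with total counts, since NIPBL then fell short of 0.6. The count that fell past both was 0 or 1 with a library left out: without the second library at 0 h, SMC3 was at -0.59. The count that fell in 96 h CTCF-depleted against 96 h control was 2 to 4 with a library left out, and 2 to 4 in 96 h CTCF-depleted against 0 h, where fewer libraries support each call and a lone library is assumed to vary like the others.

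With the longest transcript, 1 of 10 members kept its place in the order of levels at 0 h, 3 at 96 h control and 1 at 96 h CTCF-depleted, as lengths changed unequally. Over condition means, at most 1 of the 3 nearest genes of a member stayed the same.

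Replicate numbers did not pair the libraries (correlations of replicate differences -0.019, 0.011 and -0.029). With the replicate block the members' counts were the same, and STAG1 was at 1.15.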

Other observations

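Nearest tested neighbours of the 10 genes within 500 kb that do not overlap them, chosen after the values were seen, number 18. Of these, 9 passed the test in 96 h CTCF-depleted against 96 h control, where 12.0% of all genes rose and 17.4% fell. PCCB and UTP23, which overlap STAG1 and RAD21, are not among the 18. Changes past both thresholds lay beside PDS5A and SMC1A. N4BP2 lies 78.8 kb from PDS5A and fell with a log2 fold change of -1.56 in 96 h CTCF-depleted against 96 h control (adjusted p = 5.21e-26 in edgeR's quasi-likelihood test), with a change of -0.0011 in 96 h control against 0 h. UBE2K, on the other side of PDS5A at 40.1 kb, fell with a log2 fold change of -0.24 (adjusted p = 0.00085). XIAP, 46.2 kb from STAG2, rose with a log2 fold change of 0.31 (adjusted p = 0.000136), and EIF3H, 79.0 kb from RAD21, was at -0.075 (adjusted p = 0.20). IQSEC2, 52.8 kb from SMC1A, rose with a log2 fold change of 0.70 (adjusted p = 0.000424). N4BP2L2 beside PDS5B rose (0.27), and SNRPD1 beside ESCO1 (-0.39) and SUGP1 beside MAU2 (-0.31) fell, as did MSL2 and NCK1 beside STAG1. HSD17B10, DUSP5, RBM20, SLC1A3, CPLANE1, GATAD2A, STARD13 and ROCK1 did not pass the test.

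The design sets the limits. With 2 libraries per condition and 1 subclone, small changes rest on the spread shared over all genes, and the calls of RAD21, PDS5B and ESCO1 depend on single libraries or on the tool. RNA levels say nothing of the amount of cohesin protein or of its place on chromatin.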
